A study of Mus musculus with 12 samples.

Results

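The genes described here code for the pore-forming and auxiliary subunits of voltage-gated and potassium channels, in cells isolated from mouse cerebral cortex with beads against CD11b, a surface protein of microglia. They were taken by name: symbols that begin with Kcn, Scn and a digit, Cacn, or Hcn and a digit, and that the GRCm38 annotation lists as protein-coding. Of 55487 genes counted, 138 matched, and the 80 with at least 10 counts in 3 or more of the 12 libraries are reported. 79 of these 80 were among the 15425 genes of the statistical fit; *Kcnj4* was too low to enter it. Of the other 58 genes, 8 had no count in any library and none had a count above 18.

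Potassium channels hold the membrane potential of a cell negative. Two-pore channels (the Kcnk genes) conduct a background current, inward rectifiers (Kcnj) pass potassium best near the resting potential, and voltage-gated (Kcna to Kcnd, Kcnh, Kcnq) and calcium- or sodium-activated channels (Kcnm, Kcnn, Kcnt) open when a cell is depolarised or its calcium or sodium rises. Resting microglia are known for a two-pore current, carried by the channel that *Kcnk13* codes for, which bears on the surveying movement of their processes, and for an inward rectifier, whereas activated microglia add voltage-gated potassium current. Voltage-gated sodium and calcium channels are best known from neurons, and several of the same genes serve astrocytes, oligodendrocytes, vessel walls and the choroid plexus.

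The libraries fall into 4 groups of 3 male mice each, on a C57BL/6J background, each library being another mouse. WT mice and App NL-G-F mice, whose own *App* gene carries a humanised amyloid sequence with the Swedish, Beyreuther/Iberian and Arctic mutations under its own promoter, received either PBS (veh) or 10 mg/kg of rh Bri2 BRICHOS R221E, a recombinant human chaperone domain. Both agents were given intravenously 24 times over 12 weeks from 9 months of age, and the mice were killed 4 weeks after the last week of treatment. The design compares the strains within each treatment and the treatments within each strain. Each library held 12433402 to 17889654 counts, so that 3 counts, taken as the floor of detection, correspond to 0.168 to 0.241 CPM, the count scaled to a common library total. The 10 microglial marker genes summed to 29466 to 34435 CPM in every library, while RNA of other cells was present too: oligodendrocyte markers summed to 3269 to 17042 CPM, choroid plexus markers to 659 to 6903 CPM and astrocyte markers to 443 to 4610.2 CPM. The astrocyte and oligodendrocyte sums differed between the strains in the veh mice, without overlap: astrocyte markers ran from 443 to 624 CPM in WT and from 1437 to 4610.2 CPM in App NL-G-F, and oligodendrocyte markers from 9735 to 17042 CPM in WT and from 3269 to 5699 CPM in App NL-G-F. Oligodendrocyte precursor markers, too, did not overlap, at 39 to 54.6 CPM in WT and 107 to 173 CPM in App NL-G-F veh mice. Because whole cell isolates were sequenced, fewer cells of a type and less RNA per cell cannot be told apart.

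The promoters of 4 channel genes are shown, to set genes that differed between the strains beside one that did not pass the test: *Kcnj2* and *Kcna3* were higher in App NL-G-F mice, *Kcnk12* was lower, and *Kcnk13* did not pass. They are a choice among the genes with an entry in the promoter table, which has none for *Kcnk6*, *Kcnd1*, *Cacna1a*, *Kcnk9* and *Kcnk3*. Each is a window of 300 bases around the start site, runs 5′ to 3′ on the strand of its gene and comes from RefSeq on GRCm38.p6. The positions are chr11:111065914-111066213 (plus strand) for *Kcnj2*, chr3:107035912-107036211 (plus strand) for *Kcna3*, chr12:99964249-99964548 (plus strand) for *Kcnk13* and chr17:87797945-87798244 (minus strand) for *Kcnk12*. Capitals mark 3 motifs searched on both strands: GAGGAA, the core bound by the myeloid factor PU.1, CACGTG, an E-box, and GGGCGG, a GC box.
Kcnj2: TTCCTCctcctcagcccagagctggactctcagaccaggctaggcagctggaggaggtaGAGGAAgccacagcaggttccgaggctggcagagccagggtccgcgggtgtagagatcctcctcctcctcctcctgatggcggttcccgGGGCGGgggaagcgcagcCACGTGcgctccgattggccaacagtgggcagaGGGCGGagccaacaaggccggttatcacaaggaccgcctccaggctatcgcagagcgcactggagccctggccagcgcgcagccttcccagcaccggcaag
Kcna3: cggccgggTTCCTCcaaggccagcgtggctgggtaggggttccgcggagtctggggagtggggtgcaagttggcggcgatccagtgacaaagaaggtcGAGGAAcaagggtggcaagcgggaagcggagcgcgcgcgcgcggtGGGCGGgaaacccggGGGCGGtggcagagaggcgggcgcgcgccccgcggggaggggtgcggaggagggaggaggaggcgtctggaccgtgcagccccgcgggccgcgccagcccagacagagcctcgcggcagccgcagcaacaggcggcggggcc
Kcnk13: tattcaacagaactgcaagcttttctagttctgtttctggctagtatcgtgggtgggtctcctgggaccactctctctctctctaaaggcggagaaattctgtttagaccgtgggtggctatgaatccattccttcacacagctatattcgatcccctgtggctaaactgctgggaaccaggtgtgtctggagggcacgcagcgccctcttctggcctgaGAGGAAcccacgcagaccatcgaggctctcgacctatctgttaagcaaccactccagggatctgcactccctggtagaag
Kcnk12: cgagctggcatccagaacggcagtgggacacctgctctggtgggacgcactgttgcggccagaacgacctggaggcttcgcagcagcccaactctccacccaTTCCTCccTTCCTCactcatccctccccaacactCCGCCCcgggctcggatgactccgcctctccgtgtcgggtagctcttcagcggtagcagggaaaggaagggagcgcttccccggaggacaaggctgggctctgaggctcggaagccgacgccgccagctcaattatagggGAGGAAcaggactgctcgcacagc

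GAGGAA occurred in all 4 windows, 2 times in *Kcnj2* and *Kcna3*, 1 time in *Kcnk13* and 3 times in *Kcnk12*. Of 32851 promoters of this length, 28.3% held it, and so did 19 of the 57 reported channel genes that have a promoter in the table (33.3% of the genes, 24.4% of their 82 promoters, since a gene can have several). GGGCGG was found in *Kcnj2*, *Kcna3* and *Kcnk12* and not in *Kcnk13*; 35.7% of all promoters and 48.8% of the channel promoters held it. CACGTG was found in *Kcnj2* only among these 4, against 7.15% of all promoters and 8.54% of the channel promoters. The matches are letters in a window and not measured sites.

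The first question was which of these channels the isolate expresses at a level that stands out. A level here is the mean of the 4 group means in CPM per kilobase of exon, so that genes of different length can be compared, and the median level of the genes tested was 4.01 CPM per kb. Only 14 of the 80 channel genes (17.5%) lay at or above that median, 66 lay below, and 51 were under 1 CPM per kb. The highest was *Kcnk6*, the two-pore subunit TWIK-2, at 44.0 CPM per kb, and *Kcnj2*, an inward rectifier, lay at 27.6 CPM per kb. *Kcnj10*, the inward rectifier of astrocytes and oligodendrocytes, lay at 18.6 CPM per kb and *Kcnk13* at 18.3 CPM per kb. A further 9 ran from 10.6 CPM per kb for *Kcnj13* down to 4.41 CPM per kb for *Cacng7*. They were *Kcnj13*, *Hcn2*, *Kcnip3*, *Kcne2*, *Kcnd1*, *Kcnk1*, *Cacna1a*, *Cacna1d* and *Cacng7*. Just below the border came *Kcna3*, the voltage-gated potassium channel of activated microglia and lymphocytes, at 3.84 CPM per kb.

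**Figure D1:**
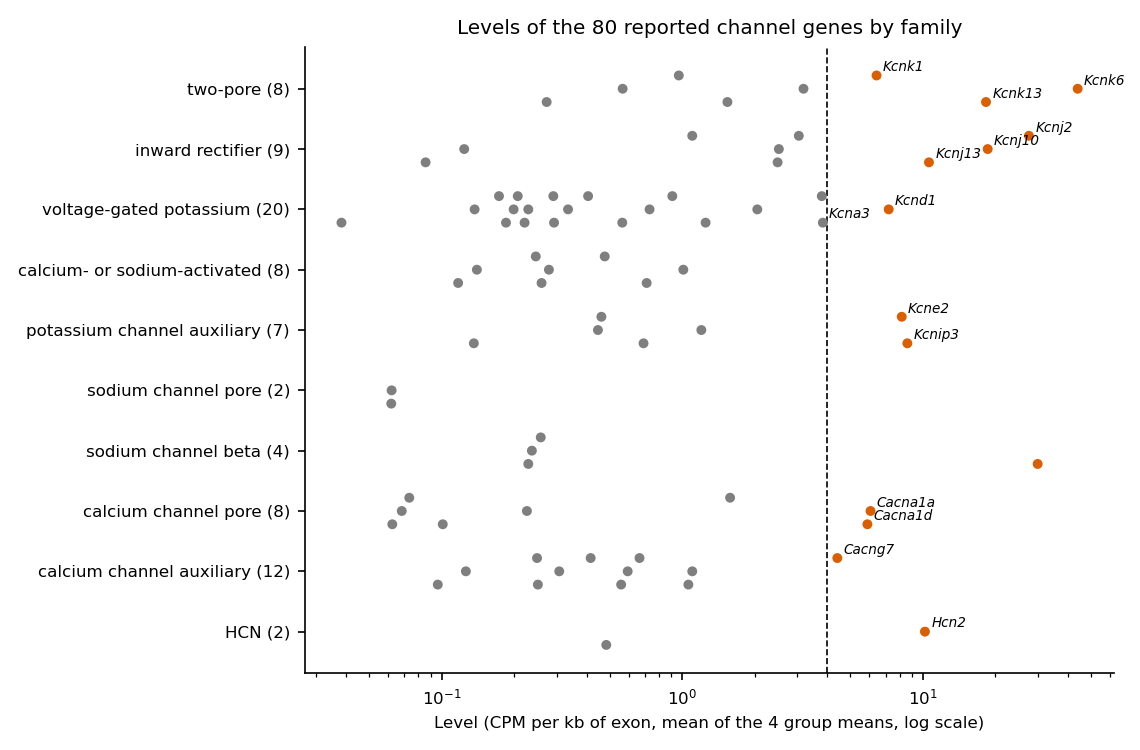
Level of each of the 80 reported channel genes (horizontal log axis, CPM per kb of exon, mean of the 4 group means) by family, with the number of genes in brackets; the dashed line is the median of the genes tested, 4.01 CPM per kb. The 14 genes at or above it are orange, 13 of them named, and 66 are grey, among them both sodium channel pore subunits and the calcium- or sodium-activated channels.

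The families differed in how far they were represented. Of the 14 two-pore genes 8 were reported and 3 were in the upper class, of 15 inward rectifiers 9 and 3, and of 40 voltage-gated potassium genes 20 and 1, *Kcnd1*. Of 10 sodium channel pore genes only *Scn2a* and *Scn8a* were reported, at 0.0619 and 0.0617 CPM per kb. 8 of 10 calcium channel pore genes were reported and 2 of them, *Cacna1a* and *Cacna1d*, were in the upper class. *Scn1a*, *Kcnc1*, *Kcnj6* and *Cacna1b*, all known from neurons, were not reported, with at most 16 counts in a library. *Kcnn4*, the calcium-activated channel of activated microglia, lay at 0.711 CPM per kb. 13 of the 80 genes reached 10 counts in 3 libraries of WT mice only and 1 in those of App NL-G-F mice only, so that the reporting rule itself favoured genes that are higher in WT mice.

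Level did not by itself separate microglial channels from those of other cells. All 10 microglial markers lay above the median, from 92.8 to 4865 CPM per kb, but so did 9 of 9 oligodendrocyte, 9 of 10 astrocyte and 5 of 7 choroid plexus markers, and 0 of 10 neuronal ones. The spread between mice of a group gave a second description. The within-group SD on the log2 CPM scale was 0.0696 for *Kcnk6*, 0.0906 for *Cacna1d*, 0.0998 for *Kcnj2*, 0.11 for *Kcnk13* and 0.117 for *Kcnd1*, all below the median of the genes tested, 0.164. It was 0.911 for *Kcnj13*, 0.81 for *Hcn2* and 0.787 for *Kcne2*, in the same level class. The median was 0.235 in the upper and 0.561 in the lower class, and low counts vary more.

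Many, though not all, of the widely spread channels moved between mice with markers of other cells. For these correlations, and for the scores used as covariates below, a marker list enters as the mean log2 CPM of its genes. It does not enter as the summed CPM. *Kcng2*, a modifier subunit of voltage-gated potassium channels with a within-group SD of 0.796, followed none of the 14 marker lists closely (highest correlation 0.25). Over the 12 deviations of a mouse from the mean of its group, the correlation with the oligodendrocyte markers was 0.986 for *Kcna1*, 0.981 for *Kcna6*, 0.974 for *Kcnq3* and 0.968 for *Hcn2*. These are 3 voltage-gated potassium subunits and 1 hyperpolarisation-activated channel. *Kcnj13* and *Kcne2*, an inward rectifier and a beta subunit of the choroid plexus epithelium, reached 0.96 with the choroid plexus markers, and *Kcnh2* 0.901. *Kcnn3* (0.941), *Kcnk2* (0.934) and *Kcnj16* (0.933) moved with the astrocyte markers and *Kcnq1* (0.918) with the endothelial ones. A correlation of at least 0.9 was reached by 5.06% of the 79 genes for oligodendrocyte markers, against 2.34% of all tested genes. The shares were 5.06% against 1.42% for astrocyte and 3.8% against 0.772% for choroid plexus markers, and for the microglial markers 0% against 0.376%. All these points share libraries and depth, so the values are descriptions. *Kcng2*, *Kcnh2*, *Kcna6*, *Kcnn3* and *Kcnq1*, and below also *Kcnk12*, *Kcnj9*, *Kcnj12*, *Scn2b*, *Scn4b*, *Cacna1s*, *Kcne1l* and *Kcnh4*, lie outside the rule for named genes and were chosen after their values were seen.

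*Hcn2* shows the size of this spread. It measured 77.2, 43.2 and 24.1 CPM in the 3 WT veh mice and 60.1, 28.9 and 13.1 CPM in the treated WT mice. In App NL-G-F mice it was 18.3, 21.1 and 32.3 CPM with veh and 38.7, 13.9 and 20.7 CPM with rh Bri2 BRICHOS R221E. All 4 groups overlapped, and no comparison of *Hcn2* passed a test with all 12 libraries. Without treated WT mouse 1 the treatment difference in WT mice, -1.20, passed unadjusted (adjusted p = 0.342). For *Kcnj13*, whose exons share 49.1% of their length with exons of *Gigyf2* on the other strand, the WT veh mice gave 6.92, 3.97 and 23.8 CPM and the treated WT mice 19.6, 25.1 and 39.9 CPM. The 6 App NL-G-F mice ranged from 3.41 to 14.3 CPM. Whether reads were counted by strand is not given in the sources used here, so reads of such overlaps may be shared.

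**Figure D2:**
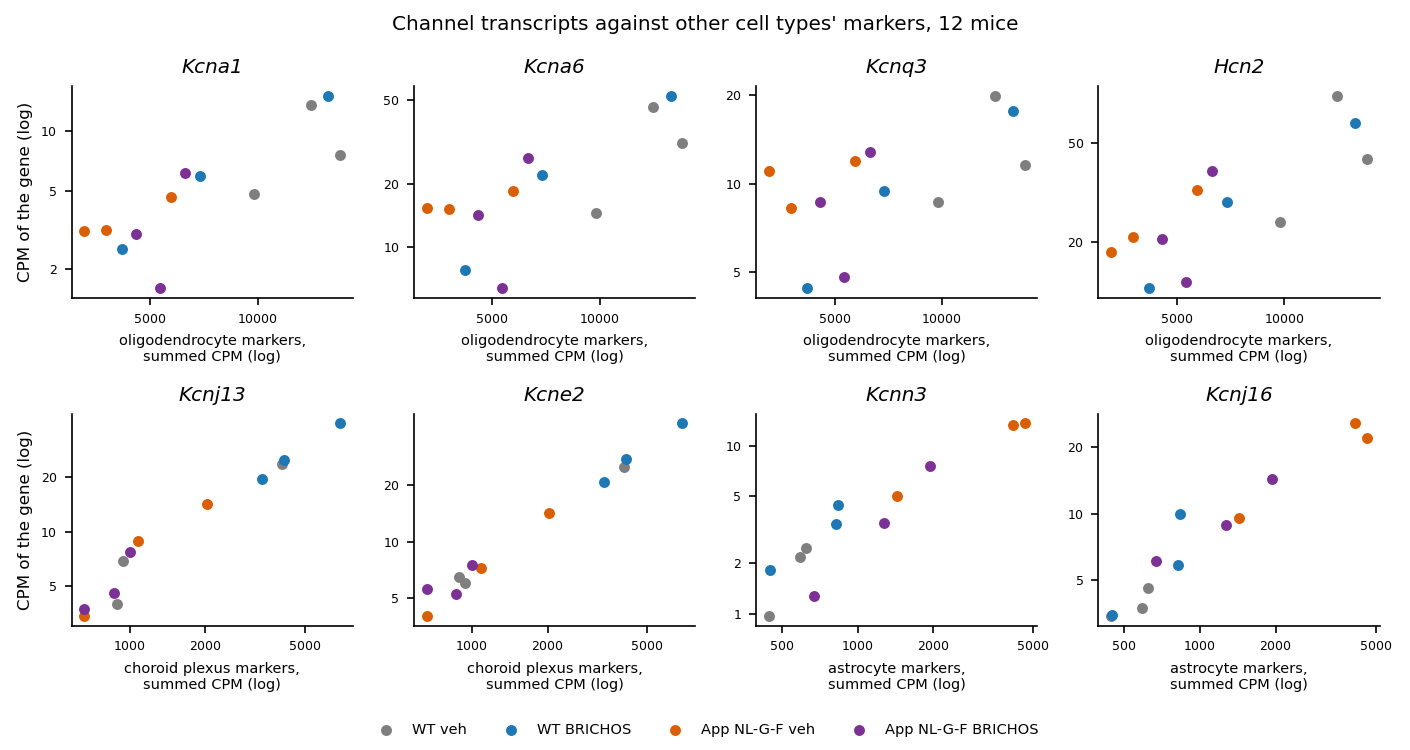
CPM of 8 channel genes (vertical log axis) against the summed CPM of oligodendrocyte, choroid plexus or astrocyte markers (horizontal log axis) in the 12 mice, coloured by group. *Kcnj13* and *Kcne2* are highest in the treated WT mouse with 6903 CPM of choroid plexus markers. *Kcnn3* and *Kcnj16* are highest in the App NL-G-F veh mice with 4131 and 4610.2 CPM of astrocyte markers. *Kcna1*, *Kcna6*, *Kcnq3* and *Hcn2* do not follow the oligodendrocyte sum in every mouse. WT veh mouse 2 has the highest sum, 17042 CPM, with *Hcn2* at 43.2 CPM. WT veh mouse 1, with a sum of 14069 CPM, has *Hcn2* at 77.2 CPM.

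The App NL-G-F and WT mice that received veh were compared next, to see which channels differ with amyloid pathology. Of the 79 genes, 28 passed an adjusted p of 0.05, 16 higher and 12 lower in App NL-G-F mice. That is 35.4%, where 37.0% of all tested genes passed, 20.1% higher and 16.9% lower, so the share of channels was near that of all genes. The median log2 fold change was -0.12 over the 79 genes and -0.02 over all genes. In the upper level class 3 of 14 rose (*Kcnj2*, *Cacna1a* and *Cacna1d*) and 4 fell, among them *Kcnk6*, *Kcnd1* and *Kcnip3*.

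Among the inward rectifiers *Kcnj2*, a strong rectifier that sets the resting potential, had the lowest p. It measured 49.2, 43.9 and 50.3 CPM in WT veh mice and 213, 229 and 254 CPM in App NL-G-F veh mice, which leaves a wide gap. The log2 fold change was 2.28 ± 0.0797 (SE, n = 3 mice a group; edgeR, adjusted p = 4.3e-09). Of the 14 marker lists, that of oligodendrocyte precursors moved most closely with *Kcnj2* between mice of a group (a correlation of 0.741). Its sum was 39 to 54.6 CPM in WT and 107 to 173 CPM in App NL-G-F veh mice, and the part of these cells in the rise was not tested. *Kcnj16*, a partner of *Kcnj10* in astrocytes, was the other inward rectifier that rose, by 2.29 ± 0.452 (adjusted p = 0.00216), from 3.43 to 4.59 CPM in WT to 9.56 to 25.7 CPM in App NL-G-F. *Kcnj9* and *Kcnj12*, another strong rectifier, fell by 0.62 and 0.80 on the log2 scale (adjusted p = 0.00576 and 0.0133), and both calls were lost with the neuron score and with the astrocyte score, alone or with the replicate number of the mice as a block. That of *Kcnj12* was lost also without App NL-G-F veh mouse 1 or 2 or WT veh mouse 2. *Kcnj10*, with 0.43 ± 0.326, did not pass (adjusted p = 0.325).

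The two-pore channels moved in both directions. *Kcnk9*, the acid-sensitive subunit TASK-3, was near the floor in WT veh mice at 0.411, 0.652 and 0.596 CPM and stood at 24.6, 37 and 47.2 CPM in App NL-G-F veh mice. No App NL-G-F mouse came near the WT range. Its log2 fold change, 6.0 ± 0.328 (adjusted p = 1.07e-07), was the highest of the 79 genes. *Kcnk3*, the related subunit TASK-1, rose by 2.64 ± 0.225 (adjusted p = 3.79e-06), from 1.09 ± 0.182 to 6.86 ± 0.432 CPM (SD, n = 3). *Kcnk2*, a mechanically gated subunit, rose from 0.82 to 1.51 CPM to 2.67 to 7.88 CPM, by 2.18 ± 0.495 (adjusted p = 0.00494).

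*Kcnk6*, the most abundant of the channels per length, fell instead. The WT veh mice gave 229, 224 and 247 CPM and the App NL-G-F veh mice 144, 149 and 159 CPM, so the groups were well apart although the change was small, -0.63 ± 0.0591 on the log2 scale (adjusted p = 8.19e-06). *Kcnk12*, the subunit THIK-2 and closest relative of *Kcnk13*, measured 9.24, 11.5 and 10.5 CPM against 3.43, 2.56 and 4.37 CPM and fell by 1.60 (SE 0.183, adjusted p = 3.96e-05). *Kcnk13* itself, THIK-1, measured 61.6, 57 and 61.2 CPM against 54.7, 52.5 and 58.2 CPM, which overlap. Its log2 fold change was -0.12 with a 95% interval from -0.31 to 0.07 (adjusted p = 0.299). Markers of border macrophages, which carry CD11b too, summed to 365 to 430 CPM in WT and 159 to 208 CPM in App NL-G-F veh mice, with all 5 detected. Of the 14 marker lists this one moved most closely with both genes between mice of a group, with correlations of 0.631 for *Kcnk12* and 0.791 for *Kcnk13*, and its part in these values was not tested.

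Of 20 voltage-gated potassium channels 4 rose and 2 fell. *Kcna3* measured 3.01, 3.8 and 3.43 CPM in WT veh mice and 9.65, 13.6 and 14.5 CPM in App NL-G-F veh mice, a log2 fold change of 1.88 ± 0.186 (adjusted p = 1.27e-05). *Kcnd1*, an A-type channel, went the other way: 53.1, 60.7 and 57.7 CPM in WT and 19.9, 25 and 25.2 CPM in App NL-G-F, a difference of -1.29 ± 0.092 (adjusted p = 8.94e-07). Both pairs of groups were separate. *Kcnd3*, of the same subfamily as *Kcnd1*, rose by 0.96 ± 0.26 (adjusted p = 0.0133), a call that was lost in 6 of 24 alternatives, those without App NL-G-F veh mouse 2 or WT veh mouse 1 and those with the astrocyte score (alone or with the block), the neuron score or the oligodendrocyte score. *Kcnh2*, the delayed rectifier best known from the heart, rose by 2.23 ± 0.613 (adjusted p = 0.0143), but the single mice gave 1.37, 1.3 and 6.78 CPM in WT and 10.4, 8.47 and 24.6 CPM in App NL-G-F, and the call was lost without App NL-G-F veh mouse 3 or WT veh mouse 1 or 2 and with the neuron score.

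Of 8 calcium- or sodium-activated channels 3 rose. *Kcnma1*, the large-conductance calcium-activated channel, went from 12.5, 11.1 and 13.3 CPM to 26.2, 23.1 and 23.4 CPM, by 0.98 ± 0.11 (adjusted p = 3.55e-05). The small-conductance channels *Kcnn2* and *Kcnn3* rose by 2.03 ± 0.537 and 2.49 ± 0.61 (adjusted p = 0.0115 and 0.00759). *Kcnn4* did not pass, at 3.16 ± 0.782 CPM in WT and 3.61 ± 1.3 CPM in App NL-G-F (SD, n = 3; adjusted p = 0.606).

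Of 7 auxiliary potassium channel genes, *Kcne1l* rose and *Kcnip3*, a calcium-binding partner of A-type channels, fell. *Kcne1l* changed by 1.69 ± 0.573 (adjusted p = 0.0373), although its groups overlapped, with 0.89, 0.474 and 0.522 CPM in WT and 2.85, 2.49 and 0.741 CPM in App NL-G-F. *Kcnip3* measured 35.5, 33.4 and 37.2 CPM against 30.2, 27.8 and 20.8 CPM (-0.43 ± 0.15, adjusted p = 0.0425). The call of *Kcne1l* was lost without App NL-G-F veh mouse 1 or 2 or WT veh mouse 2 or 3 and with the choroid plexus, neuron or oligodendrocyte score, and its sign turned with the astrocyte score. That of *Kcnip3* was lost without App NL-G-F veh mouse 2 or 3, treated WT mouse 2 or any WT veh mouse, with the choroid plexus score and with the block, alone or with the astrocyte score; with the neuron score its value turned to 0.16.

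The rises of *Kcnj16*, *Kcnk2*, *Kcnn2* and *Kcnn3* went with the astrocyte markers, all 10 of which were detected. With the astrocyte score as a covariate the log2 fold changes of *Kcnk2*, *Kcnn2*, *Kcnn3* and *Kcne1l* turned to -0.03, -0.23, -0.35 and -0.87. *Kcnj16* lost its call. The oligodendrocyte sum fell between the strains while *Kcna1* measured 13.7, 7.59 and 4.84 CPM in WT and 3.11, 3.15 and 4.67 CPM in App NL-G-F; that difference, -1.26 ± 0.628, did not pass (adjusted p = 0.138).

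Calcium channel pore subunits rose in 3 of 8 cases and none of them passed downwards. *Cacna1a*, the P/Q-type channel best known from nerve terminals, measured 17.7, 14.4 and 10.5 CPM in WT veh mice and 114, 139 and 127 CPM in App NL-G-F veh mice, a log2 fold change of 3.15 ± 0.181 (adjusted p = 1.56e-07). *Cacna1s*, the L-type channel of skeletal muscle, went from 4.66, 5.63 and 4.99 CPM to 16.4, 14.4 and 13.9 CPM, by 1.54 ± 0.191 (adjusted p = 7.39e-05); 20% of its exon length is shared with an antisense gene. *Cacna1d*, another L-type channel, measured 71.8, 64.2 and 67.1 CPM against 72.8, 80.1 and 85.4 CPM. Its rise of 0.23 ± 0.0727 (adjusted p = 0.0273) was lost in 9 of 24 alternatives: without App NL-G-F veh mouse 2 or 3 or WT veh mouse 2 or 3, in the fit of only the libraries compared (adjusted p = 0.0506), with no filter on low counts, and with the neuron score or the astrocyte score, the latter alone or with the block. Of 12 auxiliary calcium channel genes only *Cacnb2*, a beta subunit that brings the pore to the membrane, was called. It fell by 1.62 on the log2 scale (SE 0.189, adjusted p = 4.6e-05), from 12.2, 14.6 and 12 CPM to 4.08, 4.92 and 3.63 CPM. Between mice of a group *Cacnb2* moved with the mural and endothelial markers (correlations of 0.833 and 0.831 over the 12 deviations). The mural sum was 217 to 243 CPM in WT and 129.7 to 197 CPM in App NL-G-F veh mice and the endothelial sum 588 to 664 and 433 to 582 CPM, and their part in the fall was not tested.

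The called sodium channel genes were all lower in App NL-G-F mice. *Scn2a*, *Scn2b* and *Scn4b* are among the 13 genes that met the reporting rule through WT libraries only, so their direction follows in part from how they were chosen: in the App NL-G-F libraries they had at most 9, 9 and 12 counts. The beta subunits *Scn4b* and *Scn2b* were low throughout, with *Scn4b* at 1.74 ± 0.0716 against 0.377 ± 0.357 CPM and *Scn2b* at 1.45 ± 0.292 against 0.311 ± 0.243 CPM (SD, n = 3). They fell by 2.16 and 2.18 on the log2 scale (adjusted p = 0.00335 and 0.0078). The pore *Scn2a* fell by 1.78 (adjusted p = 0.0215), a call lost without App NL-G-F veh mouse 1 or 2 or WT veh mouse 2 and with the oligodendrocyte score or the astrocyte score, the latter alone or with the block. The neuronal markers, all 10 detected, summed to 45.8 to 52.0 CPM in WT and 23.6 to 26.6 CPM in App NL-G-F veh mice. Between mice of a group the correlation with them was 0.382 for *Scn2a*, 0.332 for *Scn2b* and 0.512 for *Scn4b*. *Scn2a* moved most closely with the fibroblast markers (0.517), and *Scn2b* and *Scn4b* with the astrocyte markers (0.611 and 0.541). With the neuron score as a covariate, *Scn2a*, *Scn2b* and *Scn4b* were no longer called (highest adjusted p = 0.826), although that score separates the strains and leaves little of the strain difference to test.

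**Figure D3:**
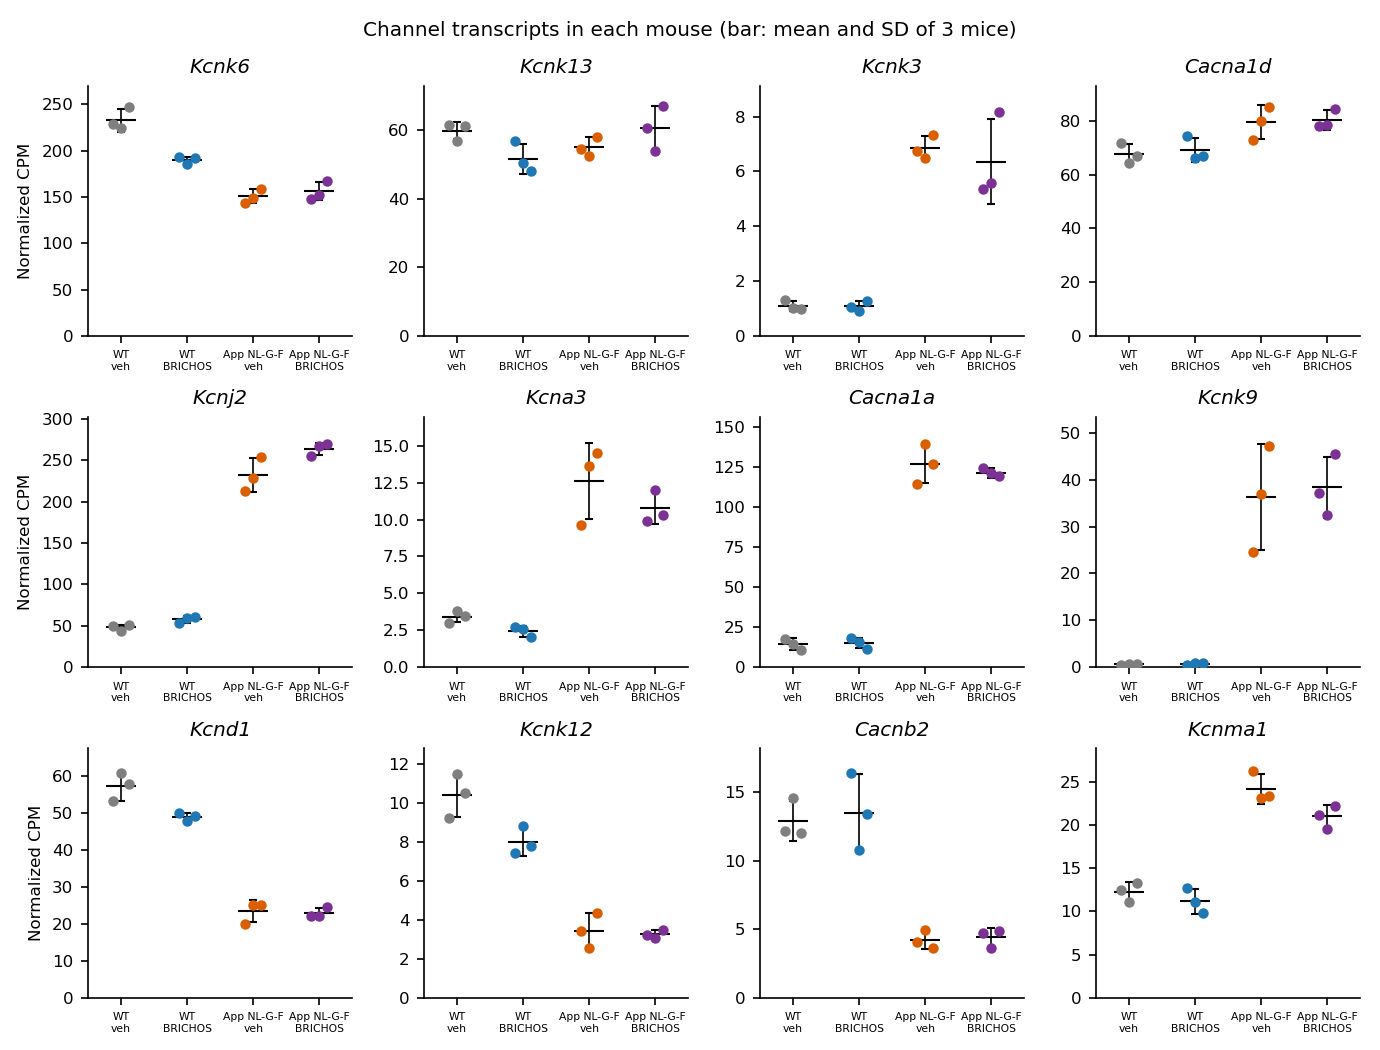
Normalized CPM of 12 channel genes in each mouse (points) with the mean and SD of 3 mice (bars), vertical axes from 0. In both treatments *Kcnj2*, *Kcna3*, *Cacna1a*, *Kcnk9*, *Kcnk3* and *Kcnma1* are higher and *Kcnk6*, *Kcnd1*, *Kcnk12* and *Cacnb2* lower in every App NL-G-F mouse than in any WT mouse, whereas *Kcnk13* overlaps.

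Of the 28 calls, 9 stood in every alternative that tested the gene, those of *Kcnj2*, *Kcnk9*, *Kcnk3*, *Cacna1a* and *Cacna1s* upwards and of *Kcnk6*, *Kcnk12*, *Kcnd1* and *Cacnb2* downwards, and 14 stood in all of these but the fit with the neuron score. *Kcnk9*, *Scn2b* and *Scn4b* were too low in some libraries to be tested when at least 10 counts were asked of every library, so that alternative says nothing of them. As a wider set, 54 genes of other channels, pumps and ion exchangers outside the naming rule were listed, of which 50 were tested. 14 rose and 9 fell in the App NL-G-F veh mice (46.0%, beside the 37.0% of all tested genes), with a median log2 fold change of 0.05.

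The same strain contrast in the 6 mice treated with rh Bri2 BRICHOS R221E sets other libraries against each other than the veh contrast does, although all 12 entered 1 fit and shared its scaling, filter and spread. 42 of 79 genes passed an adjusted p of 0.05 (53.2%, against 42.5% of all tested genes), 9 higher and 33 lower in App NL-G-F mice, where 20.8% of all genes were higher and 21.8% lower. The median log2 fold change of the channels was -0.80, against -0.04 over all genes. 19 genes were called in the same direction in both contrasts, 8 up and 11 down, which is 67.9% of the veh list and 45.2% of the other. Of the others, 7 genes were called up and 1 down with veh alone, 1 was called up and 21 down with rh Bri2 BRICHOS R221E alone, and 29 in neither.

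The 3 genes with the lowest p in the veh mice also had the lowest p here. *Kcnj2* measured 52.8, 59.1 and 60.7 CPM in treated WT mice and 256, 267 and 269.7 CPM in treated App NL-G-F mice (2.20 ± 0.0789, adjusted p = 3.9e-09). *Kcnk9* measured 0.378, 0.788 and 0.859 CPM against 37.3, 32.5 and 45.5 CPM (5.80 ± 0.312, adjusted p = 7.82e-08). *Cacna1a* measured 17.8, 15.3 and 11.4 CPM against 124, 121 and 119 CPM (3.03 ± 0.179, adjusted p = 1.73e-07). In all 3 genes every treated App NL-G-F mouse lay far above every treated WT mouse. The within-group SD on the log2 CPM scale was 0.0998 for *Kcnj2*, below the median of the genes tested, 0.164. It was above that median for *Kcnk9* (0.4) and *Cacna1a* (0.259). Oligodendrocyte precursor markers, beside which *Kcnj2* rose here too, summed to 30 to 112 CPM in treated WT and 113 to 169 CPM in treated App NL-G-F mice.

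*Kcna3* rose by 2.14 ± 0.19 and *Kcnk3* by 2.55 ± 0.222 (adjusted p = 4.82e-06 and 4.07e-06), while *Kcnd1* fell by 1.10 and *Kcnk12* by 1.30 (adjusted p = 2.95e-06 and 0.000174). *Kcnk6* fell again, by 0.29 (SE 0.0589, adjusted p = 0.00217), with 193, 186 and 192 CPM in treated WT and 148, 152 and 167 CPM in treated App NL-G-F mice. That call was lost with the choroid plexus score and with the neuron score as a covariate (highest adjusted p = 0.27). The border macrophage markers, beside which *Kcnk12* fell here too, summed to 487 to 593 CPM in treated WT and 154 to 205 CPM in treated App NL-G-F mice. *Kcnk13* measured 56.8, 50.4 and 48.1 CPM against 60.6, 54.1 and 67.2 CPM, a log2 fold change of 0.23 (95% interval 0.04 to 0.42, adjusted p = 0.0506) that lay just outside the threshold. It passed in 7 of 24 alternatives, DESeq2 among them, and its adjusted p ran from 0.0137 to 0.808. *Cacnb2* and *Kcnip3* fell by 1.61 and 0.84 on the log2 scale (adjusted p = 4.12e-05 and 0.000916). With the neuron score the calls of *Kcna3*, *Kcnk3*, *Kcnd1*, *Kcnk12*, *Cacnb2* and *Kcnip3* were lost as well. The neuronal markers summed to 46 to 68.2 CPM in treated WT and 22.9 to 24.5 CPM in treated App NL-G-F mice. The neuron score thus leaves little of the strain difference to test here too.

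The 21 genes that fell in the treated mice alone were of the lower level class, except *Kcnj13*, *Kcne2*, *Kcnk1* and *Cacng7*. *Kcnj13* and *Kcne2* fell by 2.41 and 2.33 (adjusted p = 0.0108 and 0.00693), beside choroid plexus markers, all 7 detected, of 3359.9 to 6903 CPM in treated WT and 659 to 1002 CPM in treated App NL-G-F mice. With the choroid plexus score as a covariate, added after the data were seen, their log2 fold changes became 0.25 and 0.06 and the number of called genes 19. *Kcnj8* and *Kcnmb1*, known from pericytes and smooth muscle, fell by 1.54 and 1.95 (adjusted p = 0.00399 and 0.000671), beside mural markers, all 7 detected, of 255 to 338 CPM in treated WT and 81.7 to 130.5 CPM in treated App NL-G-F mice; the part of these cells in the result was not tested. *Kcnmb1*, the beta subunit of the large-conductance channel, measured 1.64, 2.53 and 2.92 CPM against 0.839, 0.448 and 0.529 CPM. Between mice of a group its correlation was 0.132 with the mural and 0.887 with the neuronal markers, which summed to 46.0 to 68.2 CPM in treated WT and 22.9 to 24.5 CPM in treated App NL-G-F mice, and with the neuron score as a covariate its log2 fold change was 0.16.

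Of the lower level class *Scn8a* (-2.00), *Cacna1h* (-1.36) and *Kcnt1* (-2.52) also fell (adjusted p = 0.0125, 0.0051 and 0.0025), a sodium, a calcium and a potassium channel known from neurons. Between mice of a group, though, *Scn8a* moved most closely with the astrocyte markers (a correlation of 0.826, beside 0.587 with the neuronal ones), *Cacna1h* with the fibroblast markers (0.749 beside 0.347) and *Kcnt1* with the ependymal markers (0.761 beside 0.404). With the choroid plexus score as a covariate all 3 lost their calls (adjusted p = 0.1, 0.0901 and 0.16), and so they did with the neuron score (adjusted p = 0.849, 0.823 and 0.964). The sums of both marker lists, given above, did not overlap between the treated strains. Either score thus leaves less of the strain difference to test, and the part of those cells was not tested. *Kcnk1* and *Cacng7* fell by 1.15 and 0.88 (adjusted p = 0.0424 and 0.0148), but the call of *Kcnk1* was lost without any 1 of 5 libraries (treated App NL-G-F mice 2 and 3, treated WT mice 2 and 3, App NL-G-F veh mouse 2) and that of *Cacng7* without any 1 of 3 (treated App NL-G-F mice 2 and 3, treated WT mouse 1) and in the fit of only the libraries compared (adjusted p = 0.0503). Both were lost with the choroid plexus score and with the neuron score. *Kcnh4* was the 1 gene that rose here alone, by 1.36 ± 0.457 (adjusted p = 0.0324), and its call was lost in 8 of 23 alternatives: without treated App NL-G-F mouse 2 or treated WT mouse 1 or 2, in the fit of only the libraries compared (adjusted p = 0.0579), and in those with the choroid plexus score, the neuron score and the replicate block with and without the astrocyte score. The rise of *Cacna1d*, 0.22 ± 0.0725 (adjusted p = 0.0291), was lost without mouse 2 or 3 of either treated group, with at least 10 counts asked of every library, and with the choroid plexus or neuron score. Of the 42 calls, 34 stood without each library in turn and 17 in every alternative but the fit with the neuron score. 4 stood in every alternative that tested the gene, those of *Kcnj2*, *Kcnk9* (not tested under the filter named above), *Cacna1a* and *Cacna1s*. Of the 50 other ion transport genes 13 rose and 15 fell (56.0%, beside the 42.5% of all tested genes).

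**Figure D4:**
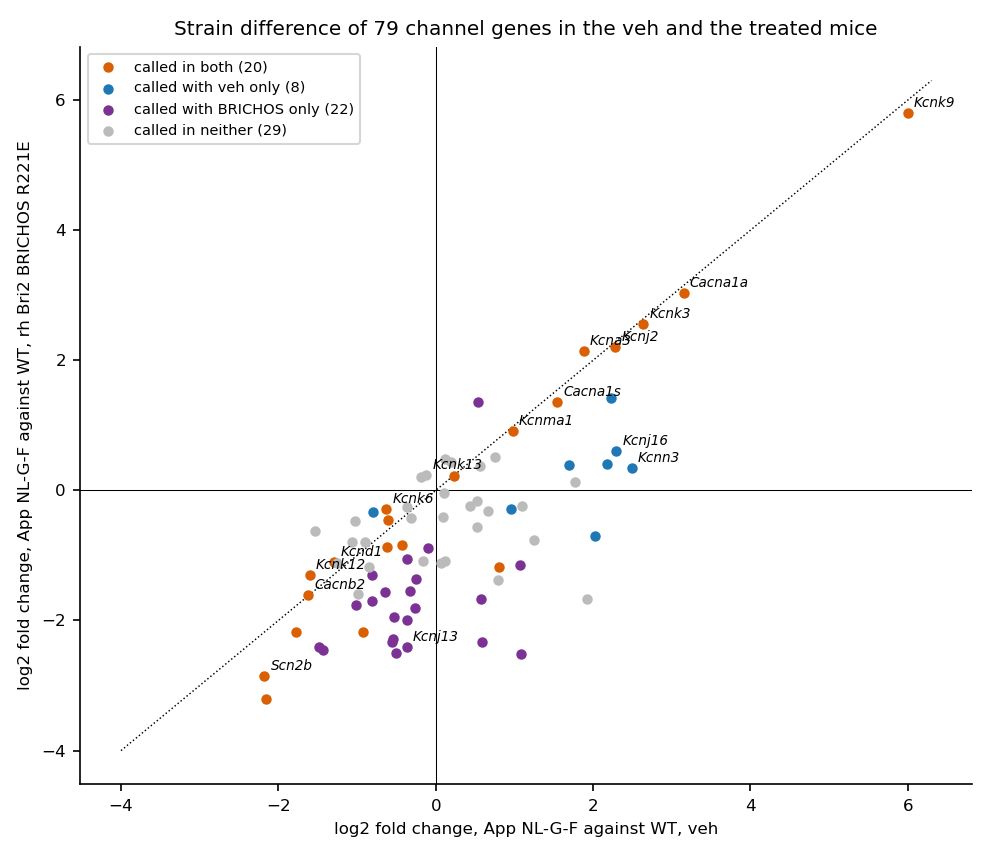
log2 fold change of App NL-G-F against WT in veh mice (horizontal axis) and in mice treated with rh Bri2 BRICHOS R221E (vertical axis) for 79 channel genes, coloured by where the adjusted p passed 0.05; the dotted line marks equal values. *Kcnk9*, *Cacna1a*, *Kcnk3*, *Kcnj2* and *Kcna3* lie near the line at the upper right, and 21 genes called with rh Bri2 BRICHOS R221E alone lie at negative vertical values.

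Treatment was then compared with veh within App NL-G-F mice, to see whether rh Bri2 BRICHOS R221E moves these channels where amyloid is present. None of the 79 genes passed an adjusted p of 0.05 in edgeR, where 1 gene of the whole table did (0.00648%), or in DESeq2, where 0.913% of the genes given an adjusted p did. At an unadjusted p of 0.05, 18 passed in either tool (22.8%, against 10.8% of all tested genes), of which 1 was higher and 17 lower in edgeR (3.18% and 7.67% of all genes). The median log2 fold change was -0.27, against 0.01 over all genes.

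The one higher gene was *Kcnj2*, at 213, 229 and 254 CPM with veh and 256, 267 and 269.7 CPM with rh Bri2 BRICHOS R221E. These groups do not overlap, as is so for 13.5% of all genes, and the log2 fold change was 0.19 ± 0.0748 (adjusted p = 0.383). *Kcnd3* measured 3.56, 5.12 and 3.7 CPM against 2.13, 2.82 and 1.66 CPM (-0.90, adjusted p = 0.294). *Kcnn2*, *Kcnt1*, *Cacna1h* and *Kcnk1* had log2 fold changes of -1.76, -1.65, -1.11 and -1.22 (adjusted p from 0.294 to 0.335). *Cacng8* had -1.05 (adjusted p = 0.374). Among the 17 lower genes, 2 lie in the upper level class, *Kcnk1*, a weak inward two-pore channel found in astrocytes, and *Cacng7*. *Cacng7* measured 11.8, 11.6 and 9.41 CPM with veh and 10.3, 5.05 and 6.12 CPM with rh Bri2 BRICHOS R221E, which overlap (-0.61 ± 0.254, adjusted p = 0.412).

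No such difference passed, even unadjusted, for 7 genes that were called between the strains or are textbook microglial channels. The 95% interval of the log2 fold change ran from -0.08 to 0.18 for *Kcnk6*, from -0.05 to 0.33 for *Kcnk13*, from -0.23 to 0.17 for *Kcnd1* and from -0.14 to 0.18 for *Cacna1d*. For *Cacna1a* it ran from -0.41 to 0.29, for *Kcna3* from -0.60 to 0.15 and for *Kcnk9* from -0.39 to 0.56.

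The count of 18 changed when single mice were left out and when the astrocyte score was a covariate. It was 7 without App NL-G-F veh mouse 2, 9 without veh mouse 1, 8 without treated mouse 2 and 9 without treated mouse 3. It rose to 26 without App NL-G-F veh mouse 3, 21 without treated App NL-G-F mouse 1 and 24 without treated WT mouse 1. Astrocyte markers ran from 1437 to 4610.2 CPM with veh and from 668 to 1934 CPM with rh Bri2 BRICHOS R221E, and with their score as a covariate 4 genes passed. *Kcnj16*, *Kcnk2* and *Kcnn3* then turned from -0.97, -1.01 and -1.37 to 0.24, 0.22 and 0.12. Endothelial markers were also lower with treatment, without overlap, at 433 to 582 CPM with veh and 363 to 414 CPM with rh Bri2 BRICHOS R221E. Mural markers ran from 129.7 to 197 CPM with veh and from 81.7 to 130.5 CPM with treatment. The part of astrocytes and of these vessel cells in the count was not tested.

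In WT mice the same treatment was compared with veh. In edgeR none of the 79 genes passed an adjusted p of 0.05 (0.00% of all tested genes did), and in DESeq2 *Kcnk6* alone did (adjusted p = 0.014), as did 0.529% of the genes that DESeq2 gave an adjusted p. At an unadjusted p of 0.05 15 genes passed in edgeR and 14 in DESeq2 (19.0% in edgeR, against 11.4% of all tested genes), 9 higher and 6 lower in edgeR (6.55% and 4.83% of all genes), and 57 of the 79 estimates were above 0. *Kcnk6* had the lowest p, with 229, 224 and 247 CPM with veh and 193, 186 and 192 CPM with rh Bri2 BRICHOS R221E, which do not overlap (17.5% of all genes do not). Its log2 fold change was -0.29 ± 0.0587, and its adjusted p of 0.19 ran from 0.014 to 0.655 over the alternatives.

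*Kcnj2* was again a little higher, at 49.2, 43.9 and 50.3 CPM against 52.8, 59.1 and 60.7 CPM (0.27 ± 0.078, adjusted p = 0.262). *Kcnd1*, *Kcna3* and *Kcnk13* had log2 fold changes of -0.22, -0.49 and -0.21 (adjusted p = 0.389, 0.394 and 0.395), each with groups that did not overlap. *Kcnmb1*, *Kcne4*, *Kcnt1*, *Cacng4* and *Cacna2d2* had positive values between 1.21 and 2.09 (adjusted p from 0.239 to 0.329). *Kcne4*, a beta subunit of voltage-gated potassium channels, measured 0.959, 0.89 and 1.34 CPM against 2.39, 2.59 and 2.75 CPM. Markers of 4 other cell types, all detected, were higher in treated than in veh WT mice without overlap: fibroblast markers summed to 16.9 to 24.6 beside 7.81 to 10.7 CPM, ependymal markers to 21.7 to 40.8 beside 13.7 to 16.6 CPM, mural markers to 255 to 338 beside 217 to 243 CPM and border macrophage markers to 487 to 593 beside 365 to 430 CPM. Their part in these values was not tested. *Kcnj13* and *Kcne2* both had 1.30 (adjusted p = 0.447 and 0.403), beside choroid plexus markers of 887 to 4054 CPM with veh and 3359.9 to 6903 CPM with treatment. The count of 15 became 5 without treated WT mouse 3 and 8 without WT veh mouse 2.

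**Figure D5:**
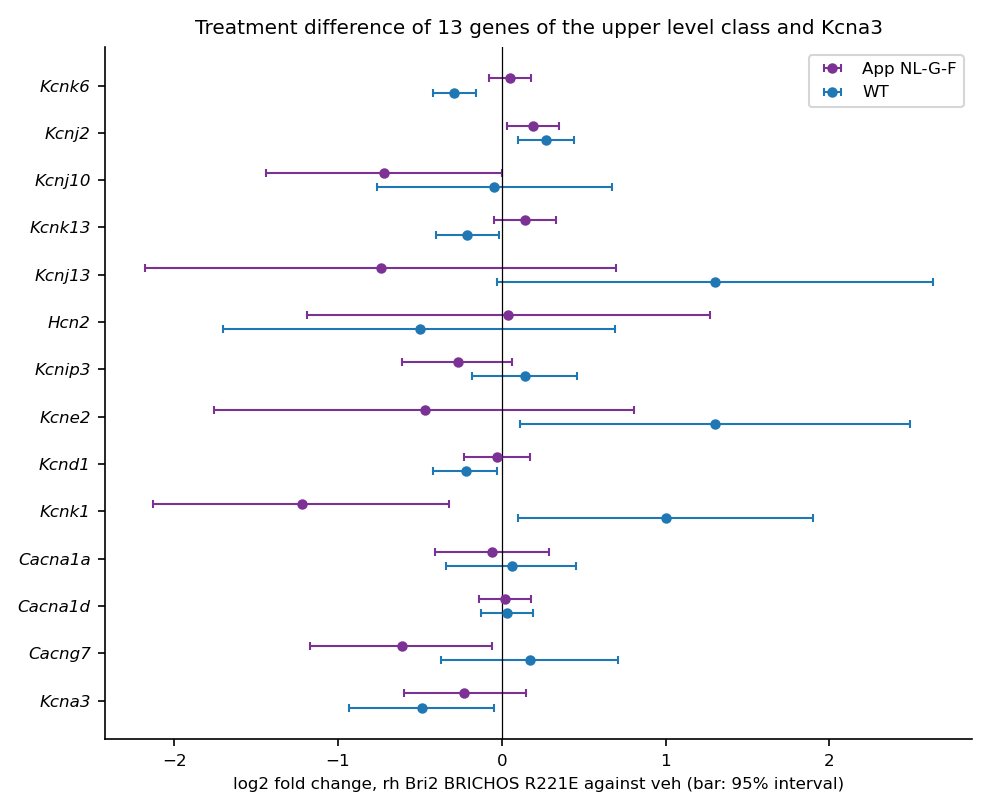
log2 fold change of rh Bri2 BRICHOS R221E against veh, with its 95% interval, for 13 of the 14 genes of the upper level class and for *Kcna3* (rows, by level from the top) in each strain. Only *Kcnj2* lies above 0 with its whole interval in both strains, from 0.03 to 0.35 and from 0.10 to 0.44; intervals of *Kcnj13*, *Kcne2* and *Hcn2* are the widest.

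Whether the treatment acts differently in the strains was tested with the interaction term, which sets the treatment difference in App NL-G-F mice against that in WT mice. In edgeR none of the 79 genes passed an adjusted p of 0.05 (0.00648% of all tested genes did) and in DESeq2 5 did, among them *Kcnk1*, *Kcnk6*, *Kcnn2* and *Kcnt1*, where 1.71% of the genes with an adjusted p passed. At an unadjusted p of 0.05 23 passed in edgeR and 21 in DESeq2 (29.1% in edgeR, against 14.8% of all tested genes), with 2 positive and 21 negative in edgeR (5.23% and 9.54% of all genes). *Kcnt1*, a sodium-activated potassium channel, had an interaction of -3.60 ± 0.738 (adjusted p = 0.153).

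In WT mice *Kcnt1* was 0.479, 0.652 and 0.596 CPM with veh and 0.945, 2.14 and 3.66 CPM with rh Bri2 BRICHOS R221E, and in the App NL-G-F strain 1.68, 1.18 and 0.815 CPM against 0.323, 0.256 and 0.604 CPM. The order of veh and treated mice was thus opposite in the strains, without overlap within either. Its adjusted p ran from 0.00821 to 0.819 over the alternatives. The 2 positive genes were the two-pore channels *Kcnk6* (0.34 ± 0.0833, adjusted p = 0.157) and *Kcnk13* (0.35 ± 0.122, adjusted p = 0.238), whose treatment differences in WT mice were -0.29 and -0.21, beside 0.05 and 0.14 in App NL-G-F mice. The count of 23 became 8 in the fit with the astrocyte score as a covariate.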

How the data were processed

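RNA from CD11b-positive cortical cells was sequenced after a stranded mRNA preparation. The deposited values are raw counts per gene, made by the authors with STAR and featureCounts 1.5.1 on GRCm38. The submitters' processing notes give STAR 2.6.1d and the study's methods another version; strand and multimapping settings are not given in the sources used here.

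Counts were scaled by TMM, filtered (filterByExpr, minimum 10 counts) and fitted for all 12 libraries in edgeR 4.0.16 (quasi-likelihood test, R 4.3.3), using 1 coefficient per group and Benjamini-Hochberg adjustment over 15425 genes. The script for the fit was tested on simulated data with seeded changes. CPM are TMM-scaled, and per-sample log2 values carry a prior count of 2. Exon lengths and overlaps came from the GRCm38 annotation, promoters from RefSeq. Named were the upper level class, textbook channels of brain cell types and the 8 lowest p of each comparison; a few of these genes are not reported here. The alternatives were DESeq2 1.42.0, other filters, a replicate block, marker scores as covariates and each library left out. The members, lists and tests were chosen with earlier results of these data known.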

Additional observations from a re-analysis of the deposited data

How the results depend on the processing

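With 3 mice a group and low counts for most channels, the calls near the threshold rest on single mice. The strain calls in veh and treated mice numbered 28 and 42. With the astrocyte score as a covariate the veh count was 18, with the neuron score 14 and with the replicate block and astrocyte score together 17. The count in treated mice was 23 (of 44 genes tested) when at least 10 counts were asked of every library, 19 with the choroid plexus score and 4 with the neuron score. For the other ion transport genes these counts, 23 and 28, became 14 with the astrocyte and 6 with the neuron score in veh mice, and 18 with the choroid plexus and 1 with the neuron score in treated mice. The treatment count in App NL-G-F mice, 18, was 4 with the astrocyte score, 11 with at least 10 counts in every library and 7 with the block and astrocyte score; that in WT mice, 15, was 9 with the astrocyte score, 9 with the choroid plexus score and 5 with the neuron score. The interaction count, 23, was 8, 13, 14 and 11 with the astrocyte score, the stricter filter, the neuron score, and the block and astrocyte score. The stricter filter tests fewer genes by construction. The neuronal sums did not overlap between the strains in either treatment, so the neuron score leaves little of the strain difference to test. The cause of the other shifts was not tested. At the upper quartile of the genes tested in place of the median, 5 genes were in the upper class. The choroid plexus and oligodendrocyte scores were added after the data were seen.

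Leaving out 1 library at a time gave 21 to 31 calls for the strain contrast with veh and 35 to 45 with rh Bri2 BRICHOS R221E, 21 to 25 and 26 to 29 for the other ion transport genes, 7 to 26 for treatment in App NL-G-F mice, 5 to 22 in WT mice, 16 to 27 for the interaction, and 14 to 15 genes in the upper class. With 2 mice left in a group their spread is taken from the other groups.

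These log2 fold changes changed sign. With the astrocyte score, the veh strain contrast gave -0.87 for *Kcne1l*, -0.03 for *Kcnk2*, -0.23 for *Kcnn2* and -0.35 for *Kcnn3*, treatment in App NL-G-F mice 0.24 for *Kcnj16*, 0.22 for *Kcnk2* and 0.12 for *Kcnn3*, and the interaction 0.01 for *Kcnj16*. With the block as well, the veh strain contrast gave -0.75 for *Kcne1l*, -0.57 for *Kcnn2* and -0.29 for *Kcnn3*, treatment in App NL-G-F mice 0.26 for *Kcnd2*, 0.30 for *Kcnj16*, 0.19 for *Kcnk2* and 0.08 for *Kcnn3*, and the interaction 0.10 for *Kcnj16*. With the choroid plexus score, the treated strain contrast gave 0.06 for *Kcne2* and 0.25 for *Kcnj13* and the interaction 0.08 for *Kcne2*. With the oligodendrocyte score, the veh strain contrast gave 0.52 for *Kcna6* and 0.65 for *Kcnq3* and the interaction -0.51 for *Kcna6*. With the neuron score, the veh contrast gave 0.16 for *Kcnip3*, and the treated contrast 0.01 for *Cacna2d2*, 4.23 for *Cacng4*, 0.16 for *Kcnmb1* and 0.64 for *Scn8a*.

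The mice share replicate numbers without a stated pairing. Correlations of same-numbered mice in their deviations ran from -0.0148 to 0.227, and in no comparison did every mouse correlate best with its own number. In the veh strain contrast WT mouse 1 alone did not (0.0564, beside 0.112 with App NL-G-F mouse 2). In the treatment comparison of WT mice, treated mouse 2 alone did not (0.0599, beside 0.132 with veh mouse 1). A replicate block gave 29 and 45 calls for the strain contrasts, 17 for treatment in App NL-G-F mice, 18 for treatment in WT mice and 28 for the interaction. Of the strain calls of named genes, it lost that of *Kcnip3* in veh mice (adjusted p = 0.0546) and that of *Kcnh4* in treated mice (adjusted p = 0.0519).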
